A study of Gallus gallus with 32 samples.

Results

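The genes of the proteasome and of ubiquitin activation and conjugation were examined in the anterior pituitary of growing chickens. Members were taken by symbol from the platform's probe table: proteasome subunits, activators, inhibitor and assembly chaperones (PSMA to PSMG with a number), ubiquitin-conjugating enzymes (UBE2 with a letter) and ubiquitin-like modifier activating enzymes (UBA with a number). The rule found 51 genes on 99 probes, and 79 probes of 49 genes had a value on at least 24 of the 32 arrays. All 49 were tested, among 5738 named genes and 14688 probes tested in all. The 2 genes without such a probe were UBE2G1, usable on at most 7 arrays, and UBE2O, usable on 21. By role, the tested members are 13 subunits of the core particle, 5 ATPases and 10 non-ATPase members of the regulatory particle, 3 activators or inhibitors, 3 assembly chaperones, 2 activating enzymes and 13 conjugating enzymes.

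Fat and Lean line chickens, bred apart on the weight of abdominal fat for 7 generations, were grown as standard broilers. The groups are fat week 1, fat week 3, fat week 5, fat week 7, lean week 1, lean week 3, lean week 5 and lean week 7, each with 4 individual samples, 1 array per sample. On each array the amplified RNA of a gland, in Cy3, was set against a pool of all 32 RNAs, in Cy5, so that every value given is a log2 ratio of sample over pool and no probe's level can be set against another's. The selected lines are the only genotypes, and no unselected line is among the groups to tell a gain in one from a loss in the other.

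The week 7 replicate 2 files of the fat and the lean line name the same slide image in their headers. Area and quality score were both identical for 53% of spots in those 2 files, and for no more than 0.792% between other arrays. The line to which this scan belongs is unknown, so both files were left out, and the model rests on 30 arrays with 3 per line at week 7. Where the use of all 32 arrays changes a count of calls, that count is given, without the estimates of each member.

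Proteins marked for destruction carry chains of ubiquitin, which is activated by an E1 enzyme, passed to an E2 conjugating enzyme and placed on the target with the help of an E3 ligase. The proteasome takes up such proteins through its regulatory particle, whose ATPases unfold them, and cuts them inside the core particle, a barrel of alpha and beta rings. In secretory tissue such as the pituitary the same route removes misfolded hormone precursors drawn back from the endoplasmic reticulum, and it destroys cyclins in dividing cells.

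Usable spots numbered 14008 to 16134 on an array (median 15364). The hormone transcripts of the gland stood far above background, with a Cy3 signal of 65.3 times the local background for GH, 67.4 times for PRL, 60.1 times for CGA, 34.8 times for FSHB, 25 times for TSHB and 10.7 times for POMC. Markers of dividing cells changed with age. Of 16 tested, 10 were called lower at week 7 and 1 higher (adjusted p under 0.05, limma), against 6.74% and 8.75% of all probes. Their mean per array lay between -0.39 and -0.14 at week 7 and between 0.27 and 0.63 at week 1. Of 6 red blood cell markers 3 were called lower, with array means of -0.48 to -0.10 at week 7 and 0.23 to 1.21 at week 1. Called lower too were 2 of 9 markers of fibroblasts and vessels and 1 of 5 of muscle, cartilage and bone. Of 7 neural lobe markers 1 was called higher and 1 lower. Of 8 hormone cell markers 1 was called higher, and of 8 macrophage and lymphocyte markers none was called. The dimmest marker tested stood at 3.39 times background among those of dividing cells and at 5.41 times among those of red blood cells. The file headers name 8 days, none of which holds arrays of both week 7 and week 1. Slides of this kind can also carry a gradient, and on these the normalized ratio of all probes ran up along the slide most steeply on fat week 7 replicate 4 and lean week 7 replicate 3. The median ratio of the farther 6 of the 12 rows of grid blocks exceeded that of the nearer 6 by 0.54 (log2) on fat week 7 replicate 4 and by 0.21 on lean week 7 replicate 3. On the arrays of weeks 1, 3 and 5 this difference lay between -0.11 and 0.15.

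The comparison of week 7 with week 1, as the mean of both lines, spans the ages studied. The test called 8 of 49 members, or 16.3%, which is close to the 15.5% of all tested probes called in this comparison. The 3 that rose were PSMB3, PSMB4 and UBE2D3, against 8.75% of probes called higher, and the 5 that fell were PSMA2, PSMA6, PSMA7, PSMC1 and PSMD11, against 6.74% called lower. Over genes at their brightest probe the called share was 17.2%. The median change over the 49 members was -0.03 on the log2 scale, equal to the median of -0.03 over all 5738 genes. At an unadjusted p under 0.05 there were 22 members, or 44.9%, against 32.4% of all probes. The calls are limma's moderated tests with Benjamini-Hochberg adjustment over all tested probes at 0.05, and the changes are given with their SE. With all 32 arrays 4 members were called, PSMA6, PSMA7, PSMD11 and UBE2D3, against 8.88% of probes. The part that the shift in markers of dividing and red blood cells has in these changes was not tested, and fewer cells of a type cannot be told apart from less RNA per cell.

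A pair of alpha subunits of the core particle, PSMA7 and PSMA6, fell. They kept the call in 40 and 41 of 42 alternatives, more than any other member. Of these alternatives 30 each leave out 1 array and so share most of their data. A fit in which only the groups compared gave the spread is not among the 42, and there neither was called. PSMA7 read -0.13, -0.20 and -0.64 in the fat and -0.13, -0.53 and -0.20 in the lean arrays of week 7. At week 1 it read -0.05, 0.01, 0.01 and 0.17 in the fat and -0.07, 0.11, 0.0026 and 0.19 in the lean arrays. All 6 arrays of week 7 thus lay below all 8 of week 1, which held for 1 of 49 members and for 2.74% of all genes in either direction. The lowest arrays were fat week 7 replicate 4 and lean week 7 replicate 3, and the scan left out read -0.03, among the values of week 1. The change was -0.35 (SE 0.08, 1.27-fold, adjusted p = 0.0043, limma). In the F test over all ages PSMA7 passed as well (adjusted p = 0.028).

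PSMA6 read -0.20, -0.02 and -0.04 in the fat and 0.0023, -0.04 and -0.24 in the lean arrays of week 7. At week 1 the fat arrays read -0.15, 0.15, 0.17 and 0.18 and the lean arrays 0.17, 0.34, 0.44 and 0.25. Of the 8 arrays of week 1, all but fat week 1 replicate 1 were above every array of week 7. The change was -0.28 (SE 0.07, 1.22-fold, adjusted p = 0.014), with -0.17 in the fat line (adjusted p = 0.37) and -0.39 in the lean line (adjusted p = 0.033). At week 3 PSMA6 had means of -0.02 in fat and 0.01 in lean birds. Without both of the steeply sloped arrays PSMA6 kept its call at -0.31 (adjusted p = 0.034), and PSMA7 stood at -0.21 (adjusted p = 0.054).

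**Figure D1:**
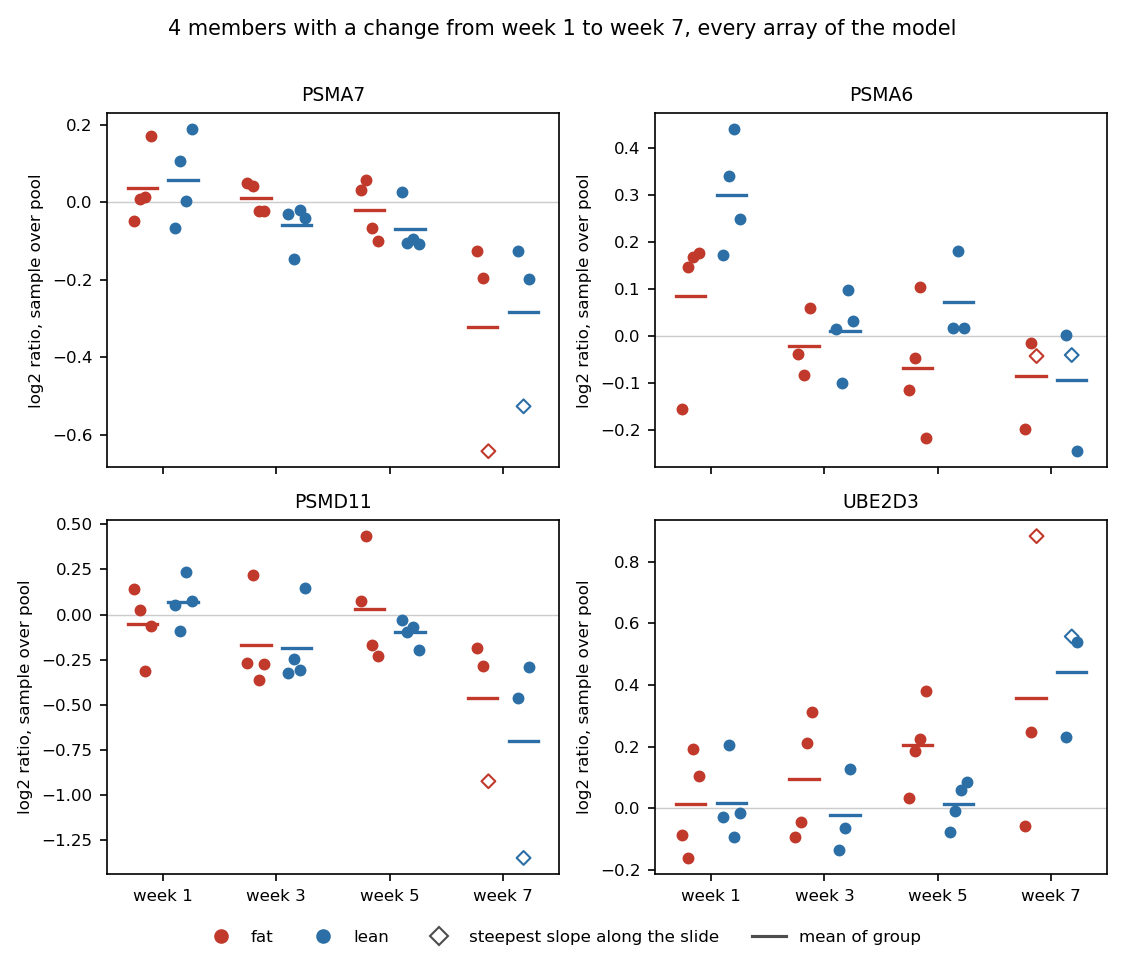
Log2 ratio of sample over pool for PSMA7 and PSMD11 (30 arrays), PSMA6 (28 arrays) and UBE2D3 (29 arrays), by week, with fat arrays in red to the left of lean arrays in blue. Lines are group means and open diamonds are fat week 7 replicate 4 and lean week 7 replicate 3, which are the 2 lowest for PSMA7 (-0.64 and -0.53) and PSMD11 (-0.92 and -1.35) and the 2 highest for UBE2D3 (0.88 and 0.56), but not at an extreme for PSMA6 (both -0.04).

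The other core subunits went both ways. PSMA2, a further alpha subunit, read 0.05, 0.44 and -0.80 in the fat and 0.32, -0.34 and 0.17 in the lean arrays of week 7, against 0.21 to 0.96 with a median of 0.37 over the 8 arrays of week 1. In 4 arrays of week 7 it lay below all of week 1, and the fall of -0.53 (SE 0.17, adjusted p = 0.037) was lost without fat week 7 replicate 4 (-0.36, adjusted p = 0.17) or without lean week 7 replicate 3 (-0.43, adjusted p = 0.13). Omitting any of fat week 1 replicate 3, fat week 1 replicate 4 and lean week 1 replicate 3 also ended the call, with an adjusted p of 0.062, 0.054 and 0.080. PSMB3 and PSMB4, non-catalytic beta subunits, were the core genes that rose, by 0.33 (SE 0.11, adjusted p = 0.044) and by 0.29 (SE 0.10, adjusted p = 0.045). PSMB3 read 0.32, 0.40 and 0.14 in the fat and 0.29, 0.88 and 0.27 in the lean arrays of week 7, and -0.15 to 0.26 at week 1. Of its 6 arrays of week 7, 5 were above all of week 1, the exception being fat week 7 replicate 4. PSMB3 kept its call in 20 and PSMB4 in 19 of the 42 alternatives, and without lean week 7 replicate 3 the change of PSMB3 was 0.23 (adjusted p = 0.18).

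PSMB4 read 0.06, 0.09 and 0.44 in the fat and 0.06, 0.79 and 0.06 in the lean arrays of week 7, and -0.18 to 0.11 at week 1. Only fat week 7 replicate 4 and lean week 7 replicate 3 were above the range of week 1. PSMB4 lost its call without lean week 7 replicate 3 (0.17, adjusted p = 0.20) and without fat week 7 replicate 4 (0.23, adjusted p = 0.16). Among subunits that did not pass, PSMA1 had the largest positive value, 0.36 (adjusted p = 0.0505), and PSMB2 the most negative, -0.20. The catalytic subunits PSMB5, with the chymotrypsin-like site, and PSMB7, with the trypsin-like site, read -0.08 and -0.06 with adjusted p of 0.69 and 0.57. For PSMB5 this mean joins -0.48 in the fat line (adjusted p = 0.14) and 0.32 in the lean line (adjusted p = 0.25). Over the 13 core subunits the median change was -0.06, and 8 were negative.

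The ATPases unfold substrates and push them into the core, and 1 of 5 passed. PSMC1 read 0.03, 0.22 and -0.91 in the fat and -0.37, -0.24 and 0.20 in the lean arrays of week 7. At week 1 it read 0.16, 0.33, 0.38 and 0.29 in the fat and 0.52, 0.22, 0.64 and -0.34 in the lean arrays. The groups overlap widely, and lean week 1 replicate 4 lay among the low arrays of week 7. The fall of -0.45 (SE 0.14, adjusted p = 0.032) was lost without fat week 7 replicate 4 (-0.28, adjusted p = 0.15), without lean week 7 replicate 3 (-0.43, adjusted p = 0.087) and without lean week 7 replicate 1 (-0.39, adjusted p = 0.065). Omitting any of fat week 1 replicate 2, lean week 1 replicate 1 and lean week 1 replicate 3 also ended the call, with an adjusted p of 0.058, 0.062 and 0.071. PSMC6 stood at -0.25 (adjusted p = 0.055), PSMC3 at -0.26 (adjusted p = 0.092), PSMC2 at -0.03 and PSMC5 at 0.04. The ATPase median of -0.25 was the lowest of the 7 classes and became -0.10 when the ratios were normalized by grid block. It rests on the brightest probes. The second probes of PSMC1, PSMC3, PSMC5 and PSMC6 were at 0.16, 0.23, 0.16 and 0.06, and that of PSMC2 was at -0.16.

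In the non-ATPase part of the regulatory particle the member with the largest change of all 49 was PSMD11, a lid subunit that bridges the regulatory and the core particle. It read -0.18, -0.28 and -0.92 in the fat and -0.46, -1.35 and -0.29 in the lean arrays of week 7. At week 1 it read 0.14, 0.03, -0.31 and -0.06 in the fat and 0.05, -0.09, 0.24 and 0.07 in the lean arrays. In 3 arrays of week 7 it lay below all of week 1, and the 2 lowest were the steeply sloped ones. The fall was -0.59 (SE 0.15, 1.51-fold, adjusted p = 0.0090), with -0.41 in the fat line (adjusted p = 0.26) and -0.77 in the lean line (adjusted p = 0.033), and it passed the F test over all ages (adjusted p = 0.043). It stayed called without either of the sloped arrays alone, and without both it was -0.31 (adjusted p = 0.17).

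The other 9 non-ATPase members did not pass. PSMD9 and PSMD10, which act as chaperones of the ATPase ring although they carry subunit names, had the most negative values after PSMD11, -0.38 (adjusted p = 0.13) and -0.29 (adjusted p = 0.13). PSMD14, the deubiquitinase of the lid, was at 0.19 and its partner PSMD7 at -0.02. The scaffold subunits PSMD1 and PSMD2 were at -0.03 and 0.06, and PSMD13, PSMD6 and PSMD3 of the lid were between -0.06 and 0.04. Median change in this class was -0.02.

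The alternative caps and the helpers of assembly held no called member. PSME3, a nuclear activator, had a value of 0.46 with an SE of 0.27 (adjusted p = 0.24), the widest error of any member, and its arrays ran from -0.92 to 1.19 at week 7 and from -1.09 to 0.75 at week 1. PSME4, an activator linked to histone degradation, was at -0.21 (adjusted p = 0.099) and PSMF1, named as a proteasome inhibitor, at -0.21 (adjusted p = 0.14). Among the chaperones that build the core's rings, PSMG2 was at -0.15, PSMG1 at -0.13 and PSMG3 at 0.02. PSMG1 was the dimmest member, with a signal of 1.87 times background.

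Of the activating enzymes, UBA3, the catalytic part of the enzyme that activates NEDD8, was at -0.09 and UBA6, which activates ubiquitin, at 0.04. Of the 13 conjugating enzymes 1 passed. UBE2D3, an E2 that works with many ligases and the brightest member at 78.9 times background, read -0.06, 0.25 and 0.88 in the fat and 0.23, 0.56 and 0.54 in the lean arrays of week 7. At week 1 it read -0.09, -0.16, 0.19 and 0.11 in the fat and -0.03, 0.21, -0.09 and -0.02 in the lean arrays. Of 6 arrays of week 7, 5 were above all of week 1, and the exception was fat week 7 replicate 1. The rise was 0.39 (SE 0.11, 1.31-fold, adjusted p = 0.022) and was lost without fat week 7 replicate 4 (0.25, adjusted p = 0.099), without lean week 7 replicate 3 (0.36, adjusted p = 0.066) or without fat week 1 replicate 2 (0.36, adjusted p = 0.051).

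The remaining conjugating enzymes split by sign. UBE2N, which builds chains of a non-degradative kind, was at 0.38 (adjusted p = 0.080), UBE2K, an E2 that extends degradative chains, at 0.37 (adjusted p = 0.060), UBE2E3 at 0.32 (adjusted p = 0.0504) and UBE2H at 0.29 (adjusted p = 0.069). UBE2V1 and UBE2V2, the inactive partners of UBE2N, were at -0.23 (adjusted p = 0.13) and -0.16 (adjusted p = 0.23). Of the enzymes of endoplasmic reticulum quality control, UBE2G2 was at -0.23 and UBE2J1 at 0.17. UBE2A, which marks histones and acts in DNA repair, was at -0.18 (adjusted p = 0.090), UBE2D2 at -0.15, UBE2F, an E2 for NEDD8, at 0.20, and UBE2L3 at 0.16. The class median was 0.17, with 8 of 13 positive, and it was 0.04 with 7 of 13 positive under normalization by grid block. UBE2B and the cell cycle enzymes UBE2C, UBE2S and UBE2T were not analysed here.

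**Figure D2:**
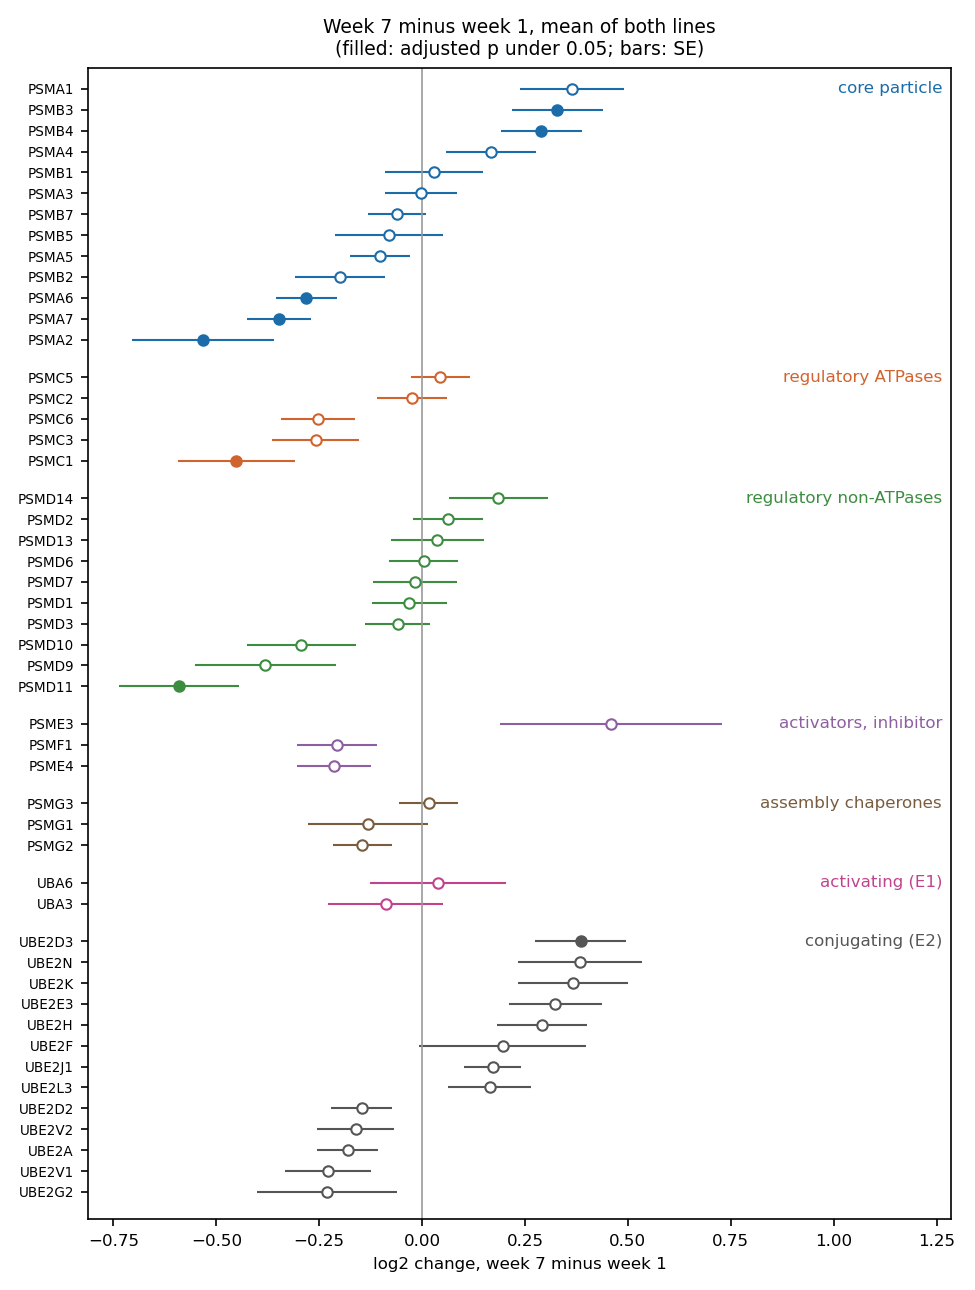
Change from week 1 to week 7 (log2, week 7 minus week 1, mean of both lines) of the 49 members by class, with bars for the SE and filled points for an adjusted p under 0.05. The 8 filled points run from -0.59 for PSMD11 to 0.39 for UBE2D3.

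The direction of change went with where a probe lies on the slide. The 5 members that fell all lie in the nearer 6 rows of grid blocks and the 3 that rose all in the farther 6. In the nearer rows 17 of 19 members were negative, with a median of -0.23, and in the farther rows 11 of 30 were negative, with a median of 0.04. Over all 14688 probes the nearer rows held 296 higher and 834 lower calls and the farther rows 989 higher and 156 lower calls, with medians of -0.11 and 0.06. Across the 49 members the change and the row had a Spearman correlation of 0.66, and across all probes 0.40. These are descriptions over probes that share the same arrays. The classes differ in position too: 4 of 5 ATPases lie in the nearer rows and 10 of 13 conjugating enzymes in the farther rows.

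With a loess curve fitted to each grid block in place of 1 per array, the correlation over the members was 0.32 and 5 members were called, against 8.08% of all probes. PSMA7 was at -0.35 (adjusted p = 0.0015), PSMA6 at -0.28 (adjusted p = 0.0094), PSMD11 at -0.41 (adjusted p = 0.037) and PSMB3 at 0.35 (adjusted p = 0.037). PSMD6, a lid subunit, was added at -0.22 (adjusted p = 0.015), where it had been at 0.0036. The calls lost were PSMA2 at -0.31 (adjusted p = 0.14), PSMC1 at -0.19 (adjusted p = 0.13), PSMB4 at 0.05 (adjusted p = 0.72) and UBE2D3 at 0.20 (adjusted p = 0.16). With this normalization and without both sloped arrays, PSMA6 at -0.29 (adjusted p = 0.033) and PSMA7 at -0.26 (adjusted p = 0.028) were the members called, and PSMB4 turned to -0.02 (adjusted p = 0.91).

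**Figure D3:**
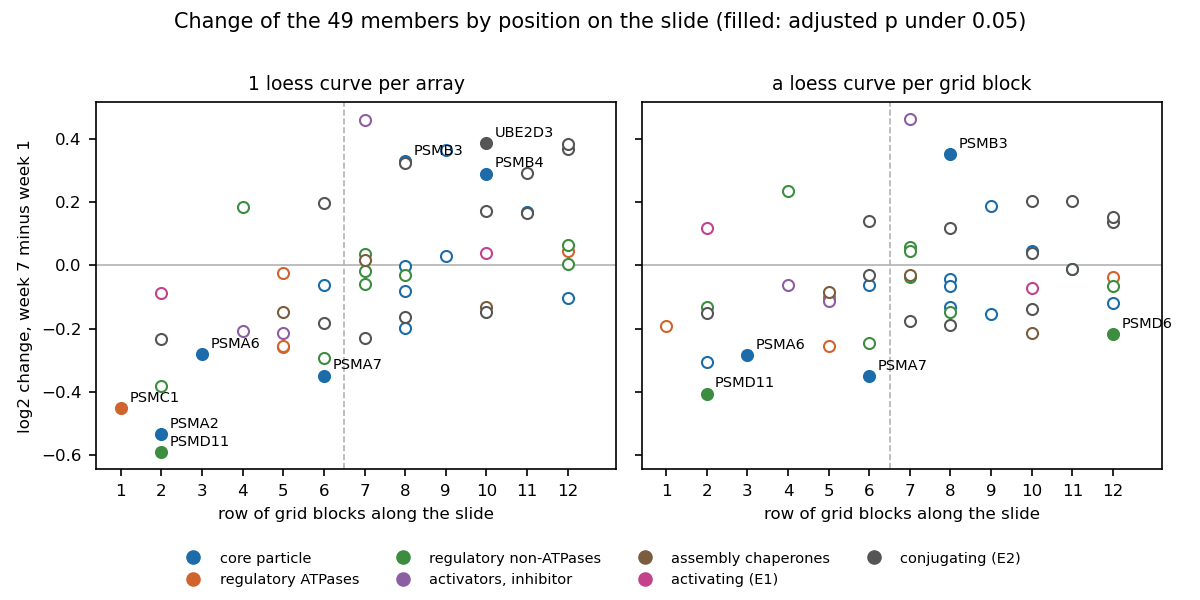
Change of the 49 members (log2, week 7 minus week 1) against the row of grid blocks that holds the probe, with 1 loess curve per array on the left and a curve per grid block on the right. Filled points have an adjusted p under 0.05: 8 on the left, of which the 5 negative ones lie in rows 1 to 6 and the 3 positive ones in rows 8 to 10, and 5 on the right.

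Header day goes with age, since no day holds both week 7 and week 1. With header day as a block, linked through weeks 3 and 5, limma called no member and none of the 14688 probes. At an unadjusted p under 0.05 there were 4 members and 1651 probes. The estimates were -0.26 for PSMA7, -0.27 for PSMA6, -0.56 for PSMD11, 0.36 for PSMB3, 0.20 for PSMB4, -0.29 for PSMC1 and 0.28 for UBE2D3, while PSMA2 turned to 0.01 (adjusted p = 0.99). On the one day that holds week 5 and week 1, week 5 minus week 1 was -0.27 in fat and -0.29 in lean birds for PSMA7, -0.17 and -0.27 for PSMD11, and 0.27 and 0.10 for UBE2D3. PSMB3 was at 0.26 in fat and 0.04 in lean birds, and PSMA6 at -0.39 in fat birds, with no value in lean birds. Against the direction of their age call stood PSMB4, at -0.06 in fat and -0.08 in lean birds, and the lean values of PSMA2 (-0.23 in fat, 0.27 in lean) and PSMC1 (-0.20 in fat, 0.41 in lean). Within a day, week 7 was also set against week 5 in lean birds, and against weeks 5 and 3 in fat birds. In that order PSMA7 was at -0.15, -0.18 and -0.17, PSMA6 at -0.01, -0.15 and -0.11, and PSMD11 at -0.43, -0.62 and -0.40. PSMB4 was at 0.21, 0.33 and 0.33. Mixed signs came with UBE2D3 (0.31, -0.24 and -0.01), PSMB3 (-0.05, -0.30 and 0.03), PSMA2 (0.32, -0.51 and 0.03) and PSMC1 (-0.47, 0.04 and -0.04). Each of these differences is between single arrays, and both fat differences from week 7 use fat week 7 replicate 1. The lean difference from week 7 uses lean week 5 replicate 1. There PSMA7 read 0.03, where the other lean arrays of week 5 read -0.11 to -0.09. The differences of week 5 from week 1 use replicate 4 of each line, whose PSMA7 values of 0.17 in fat and 0.19 in lean birds were the highest of week 1. The part of header day in the age changes was not tested beyond these values.

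Different probes of a gene often disagreed. Of 25 members with more than 1 tested probe, 14 had changes of both signs and 11 of a single sign. Among the 8 called members, 5 had further probes, and in none of these did every probe pass. The second probe of PSMA6 was at -0.12 (adjusted p = 0.51). The further probes of PSMA7 were at -0.09 (adjusted p = 0.62) and 0.20 (adjusted p = 0.32), and those of UBE2D3 at 0.12 (adjusted p = 0.35) and -0.07 (adjusted p = 0.45). The second probe of PSMC1 was at 0.16 (adjusted p = 0.32) and that of PSMB4 at 0.01 (adjusted p = 0.95). PSMA2, PSMB3 and PSMD11 had 1 tested probe.

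PSMD14 had a brightest probe at 0.19 (adjusted p = 0.28) and a second that passed at -0.25 (adjusted p = 0.020). Another split was PSMD1, whose brightest probe was at -0.03 while the second was at 0.50 (adjusted p = 0.0501) and the third at -0.27 (adjusted p = 0.11). In the lean line alone that second probe passed, at 0.92 (adjusted p = 0.032). After removal of the group means, the 36 pairs of probes of the same gene had correlations over the arrays from -0.73, for PSMD1, to 0.79, for PSMC5, with a median of 0.07. Correlations exceeded 0.5 in 4 pairs, those of PSMB7, UBE2A, UBE2N and PSMC5. The 2 probes of UBE2E3 carry the same clone and stood at 0.32 and 0.40, with a correlation of 0.32.

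**Figure D4:**
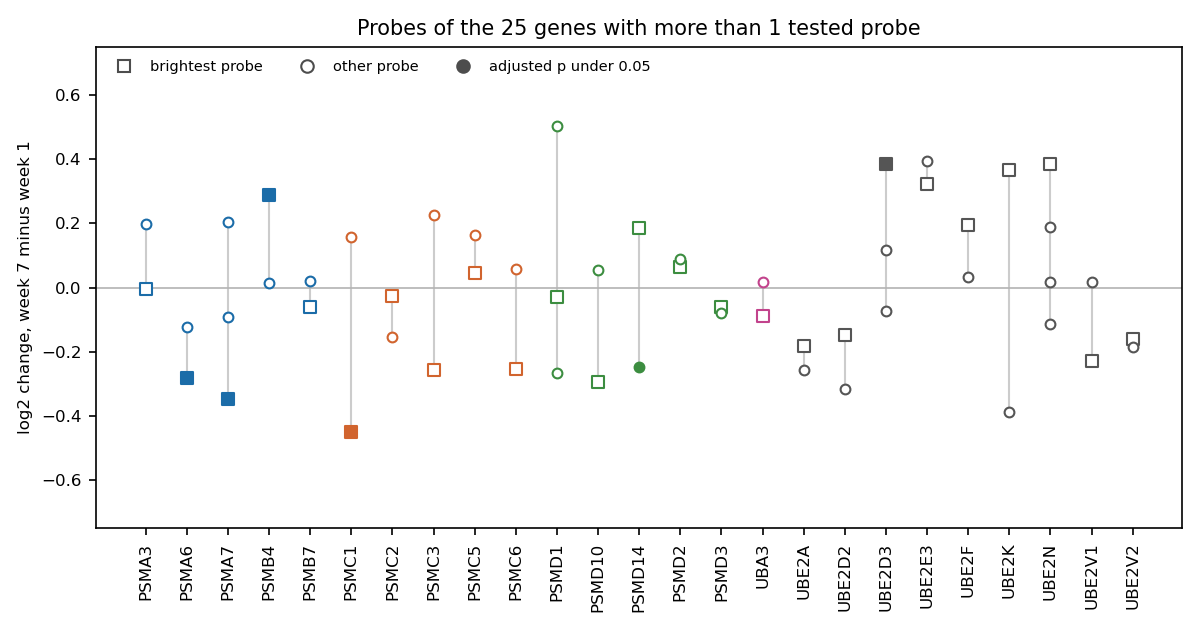
Change from week 1 to week 7 (log2, week 7 minus week 1) of every tested probe of the 25 members with more than 1, with squares for the brightest probe and filled marks for an adjusted p under 0.05. Vertical lines join the probes of a gene and cross 0 in 14 of the 25.

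Within the lines, 2 members passed in the lean line, PSMA6 and PSMD11, against 5.01% of probes called and 1.55% called lower. At an unadjusted p under 0.05 there were 13 members, against 27.2% of probes. In the fat line limma called none, against 2.98% of probes, with 11 members at an unadjusted p under 0.05, against 20.5% of probes, and the lowest adjusted p, 0.057, at PSMF1. The line by age interaction, which tests the difference itself, called no member and 0% of probes, with PSMB5 and PSMF1 as the 2 members at an unadjusted p under 0.05, against 4.35% of probes. A change in one line and not in the other is thus not shown for any member. In the F test for any age differing from week 1, 2 members passed, PSMA7 and PSMD11, against 5.34% of probes, and 12 had an unadjusted p under 0.05, against 21% of probes.

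The single steps between ages called no member by limma. From week 1 to week 3, 3 members had an unadjusted p under 0.05, against 6.87% of probes, and 0.504% of probes were called. From week 3 to week 5 there were 0 such members, against 2.88% of probes, and 0.0545% of probes were called. From week 5 to week 7 there were 13 such members, against 17.6% of probes, and 0% of probes were called. For PSMA7 the group means at weeks 1, 3, 5 and 7 were 0.04, 0.01, -0.02 and -0.32 in fat birds and 0.06, -0.06, -0.07 and -0.28 in lean birds. UBE2D3 had means of 0.01, 0.10, 0.21 and 0.36 in fat birds and of 0.02, -0.02, 0.02 and 0.44 in lean birds.

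The comparison of the lines asked whether the machinery differs between fat and lean birds at any age. Over the 4 ages limma called none of the 49 members, against 0.674% of all probes, and the lowest adjusted p at a brightest probe was 0.13. There were 3 members, or 6.12%, with an unadjusted p under 0.05, against 16% of all probes, and their values were all negative, lower in fat. No further probe passed, though a further probe of PSMA7, PSMA3, PSMC5 and PSMC2 each had an unadjusted p under 0.05. Those of PSMA7 and PSMA3 were at 0.37 (adjusted p = 0.092) and 0.24 (adjusted p = 0.27). Those of PSMC5 and PSMC2 were at -0.16 (adjusted p = 0.25) and -0.19 (adjusted p = 0.29). At the single weeks no member passed either, against 0%, 0%, 0% and 0.0204% of probes at weeks 1, 3, 5 and 7. The members with an unadjusted p under 0.05 numbered 1, 1, 0 and 8 at those weeks, against 3.73%, 3.19%, 3.9% and 20.5% of probes.

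PSMD9, the chaperone of the ATPase ring, had the largest line difference, -0.37 (SE 0.11, adjusted p = 0.13). Fat arrays ran from -1.29 to 0.11 with a median of -0.44, and lean arrays from -0.42 to 0.41 with a median of 0.02. The ranges overlap. The fat array was the lower in 13 of 14 pairs of the same week and replicate number, and the fat mean was lower at all 4 weeks. These counts come from the arrays that gave the difference, and their share over all genes was not counted. The fat mean was also lower at all 4 weeks for PSMA3, PSMB4, PSMC2, PSMC5, PSMD3, PSMD7, PSMD13, UBA3 and UBE2H. It was higher at all 4 for PSME4, UBE2D2 and UBE2G2. The signal of PSMD9 was 2.44 times background, and under normalization by grid block its difference was -0.23 (adjusted p = 0.27). The difference within a header day, on the 6 days with fat and lean arrays of one age, ran from -0.59 to 0.0024.

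PSMD7, the partner of the deubiquitinase, was at -0.21, fat minus lean (SE 0.07, adjusted p = 0.15). Fat arrays ran from -0.21 to 0.49 with a median of 0.18, and lean arrays from 0.12 to 0.79 with a median of 0.37. Fat was the lower in 12 of 15 pairs, and the difference was negative on all 6 header days, from -0.49 to -0.0065. As for PSMD9, these counts come from the arrays that gave the difference. Under normalization by grid block it was the same, -0.21 (adjusted p = 0.12). Without fat week 7 replicate 3 PSMD7 was called over the ages, 1 of 48 members tested, against 1.98% of probes. With replicate number as a block it was called as well, 1 of 49 members, against 1.91% of probes.

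PSMB5, the chymotrypsin-like subunit, was at -0.21 over the ages (SE 0.09, adjusted p = 0.26). At week 7 it read -0.62, -0.24 and -0.43 in fat and 0.03, 1.02 and 0.09 in lean arrays. All fat arrays lay below all lean arrays, and the highest value came from lean week 7 replicate 3, one of the steeply sloped arrays. PSMD3, PSMF1 and PSMD9 were separated at week 7 in the same direction, and UBA6 and UBE2A with fat above lean. PSMD9 and UBA6 each lacked a value on an array of week 7. The share of all genes so separated at week 7 was not counted, and 20.5% of probes had an unadjusted p under 0.05 there. For PSMB5 the scan left out, of unknown line, read -0.31, among the fat values and below every lean array of the model. Were that scan of the lean line, the fat and lean values of week 7 would overlap. The difference at week 7 was -0.81 (SE 0.20, adjusted p = 0.070), the nearest to the threshold of any member at a single week. Without fat week 7 replicate 3, PSMB5, PSMD6, PSMD7 and PSMF1 were called at week 7, 4 of 48 members tested, against 7.71% of probes. With replicate number as a block PSMB5 and PSMD7 were called at week 7, 2 of 49 members, against 3.58% of probes.

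By class, 11 of 13 core subunits had negative values with a median difference of -0.07, and 10 of 13 under normalization by grid block with the same median of -0.07. Over all genes 45.6% were negative. At week 1 the core had 6 of 13 negative, with a median of 0.01, and at weeks 3, 5 and 7 it had 11, 9 and 11. Over the ages, the most negative core values beyond PSMB5 were PSMA2 at -0.10 and PSMA6 at -0.09. The positive ones were 0.02 for PSMA7 and 0.01 for PSMB7. The non-ATPase members had a median of -0.05, with PSMD13 at -0.11 after PSMD9 and PSMD7, and PSMD1, PSMD6 and PSMD11 at 0.07, 0.07 and 0.06. The ATPases had a median of -0.06, which turned to 0.04 by grid block, with PSMC2 at -0.10, PSMC5 at -0.09, PSMC1 at -0.06, PSMC6 at 0.04 and PSMC3 at 0.09. Of the conjugating enzymes 9 of 13 had positive values, median 0.05, and 5 of 13 by grid block, median -0.01. The extremes were UBE2G2 at 0.20, UBE2V1 and UBE2J1 at 0.08, UBE2K at -0.04, UBE2N at -0.10 and UBE2H at -0.13. PSMG1, PSMG2 and PSMG3 were at 0.08, 0.04 and 0.06, PSME3, PSME4 and PSMF1 at 0.07, 0.04 and -0.08, and UBA3 and UBA6 at -0.12 and 0.02. The median over all genes was 0.01.

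**Figure D5:**
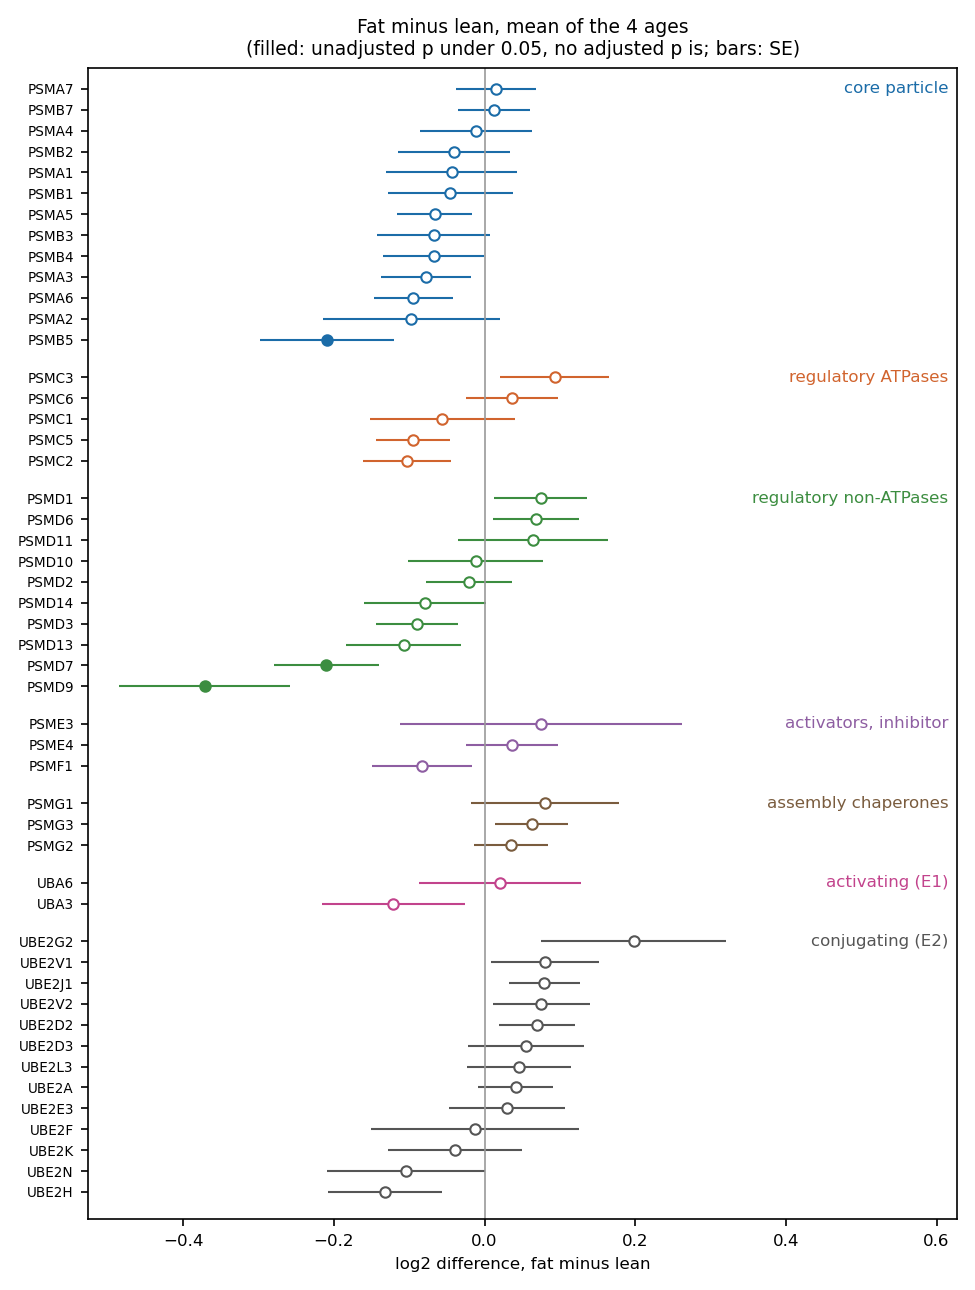
Difference between the lines (log2, fat minus lean, mean of the 4 ages) of the 49 members by class, with bars for the SE. Filled points are the 3 members with an unadjusted p under 0.05, PSMD9 at -0.37, PSMD7 at -0.21 and PSMB5 at -0.21, and no member had an adjusted p under 0.05.

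Likeness between members was measured as the Pearson correlation of residuals from the 8 group means over the 30 arrays, for the 3 called members with the largest change. PSMD11 was most like PSMC6 (0.76), PSMC3 (0.69) and PSMA7 (0.65). PSMA2 was most like UBA3 (0.84), PSMB2 (0.59) and PSMC1 (0.56), and PSMC1 was most like PSMF1 (0.67), PSMA2 (0.56) and PSMD7 (0.55). Among the called members PSMD11 and PSMB4 ran most strongly against each other, at -0.86. The points share their arrays and each array's normalization. PSMA2, UBA3 and PSMD11 lie in row 2 of the grid blocks, though PSMA2 and PSMD11 correlated at 0.35. PSMC1 lies in row 1, PSMF1 in row 4, PSMC3 and PSMC6 in row 5 and PSMA7 in row 6. PSMD7 lies in row 7, PSMB2 in row 8 and PSMB4 in row 10. The part of slide position in these correlations was not tested.

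Other genes of the pathway, a list of 88 ligase parts, deubiquitinases, ubiquitin-like proteins and shuttles, had 45 tested genes. From week 1 to week 7, 4 rose and 1 fell, against 15.5% of all probes called, and the median was -0.03. Between the lines limma called none of them. SQSTM1, the receptor that carries ubiquitinated proteins to autophagy, rose by 0.55 (SE 0.08, adjusted p = 0.00010). CAND1, the exchange factor of cullin ligases, rose by 0.80 (SE 0.14, adjusted p = 0.00047), while CUL1, a cullin scaffold, fell by 0.26 (SE 0.09, adjusted p = 0.042). NPLOC4, a cofactor of the segregase VCP, rose by 0.45 (SE 0.14, adjusted p = 0.026) and SUMO3, a ubiquitin-like modifier, by 0.27 (SE 0.08, adjusted p = 0.033). VCP itself was at -0.01 (adjusted p = 0.95). NFE2L1, the transcription factor of proteasome genes, was at -0.16 (adjusted p = 0.32). The values of these other genes are from the main fit alone. Their slide position, further probes and the alternatives tried for the members were not examined. With header day as a block, none of the 14688 probes was called from week 1 to week 7.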

How the data were processed

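Per the file headers TIGR Spotfinder wrote the array files that the authors deposited, which hold the intensity and local background of each spot in both dyes and no normalization. They also deposited a table of log2 ratios of sample over pool, which served as an alternative; its normalization is not given in the sources used here. In the fat week 7 replicate 2 file the deposited intensities reach below 0, and adding the background back matches the other file of the shared scan, so it was added back there.

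Intensities were divided by the spot's number of unsaturated pixels, spots with a bad quality mark were left out, background was corrected with normexp (offset 50) and log2 ratios were normalized by loess within each array. A limma 3.58.1 model (R 4.3.3) with a mean for each of 8 groups had 22 residual degrees of freedom. A probe was tested when usable on at least 24 of 32 arrays and on at least 2 of each group, and the brightest probe stands for its gene. P-values measure the spread between arrays of individual samples, taken as 1 spread shared by all 8 groups, and the number of arrays limits the precision. Where week 7 varied more than the other ages, the SE understates its spread. For PSMA7 the SD was 0.28 in fat and 0.21 in lean birds at week 7, and 0.04 to 0.11 in the other groups. For PSMD11 it was 0.40 and 0.57, against 0.07 to 0.30, while for PSMA6 it was 0.10 and 0.13, against 0.07 to 0.16. Tests are two-sided. The procedure was tested on simulated data with independent noise of 1 spread per probe. That simulation held no slide gradient, header day or wider spread at week 7, so it cannot show how these bear on the calls. The plots were drawn with matplotlib.

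Named are members that passed any test, the extremes of each class, members whose probes differ in sign where 1 passes, and the brightest and dimmest. The members, lists and alternatives were chosen with earlier results of these data known, and the 2 alternatives on slide position, as well as the genes named with them, after the values were seen. Symbols are those of the platform's annotation, and 48 of 49 matched a RefSeq gene. Sequences and genome positions were not used here.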

Additional observations from a re-analysis of the deposited data

Results flagged for a closer look

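A screen for an array that stands apart from the other 3 of its group covered the 8 called members and the 7 class medians in the 6 groups with 4 arrays, 90 groups in all, of which chance alone marks about 1 in 20. The 90 include PSMA6 in fat week 3 and lean week 5 and UBE2D3 in lean week 3. Each of these lacks a value on an array, so no array there could be set against 3 others. The screen marked 6. PSMA6 was -0.155 on fat week 1 replicate 1, where the others read 0.147 to 0.177. PSMD11 was 0.218 on fat week 3 replicate 2, against -0.36 to -0.266, and 0.148 on lean week 3 replicate 4, against -0.325 to -0.247. PSMA2 was 0.956 on lean week 1 replicate 3, against 0.32 to 0.378. PSMA7 was 0.0254 on lean week 5 replicate 1, against -0.107 to -0.0941. The median of the ATPases was 0.221 on lean week 3 replicate 3, against 0.14 to 0.149. All are log2 ratios of sample over pool, and the cause was not tested.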

How the results depend on the processing

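The count of members called from week 1 to week 7 was 8. With the share of all probes called in the same setting in parentheses, it was 4 with all 32 arrays (8.88%), 0 with header day as a block (0%), 2 with array weights (6.36%), 5 with loess per grid block (8.08%), 4 with scaling between arrays (7.48%), 4 with badly marked spots kept (8.57%), 2 in the authors' table (5.53%) and 0 when only the groups compared gave the spread (4.61%, with 14 members at an unadjusted p under 0.05). Counts of 11 came with 1 probe per gene (19.5%), of 10 with probes at least 2 times background (16.1%) and of 7 with no background correction (15.4%). A count of 9 came with any probe of a gene in the main fit, where 15.5% of probes were called. Chosen after seeing the data, leaving out both steeply sloped arrays gave 1 (4.21%), and 2 together with loess per grid block (3.74%). Leaving out 1 array gave 3 to 14: 3 without lean week 7 replicate 3 (7.3%) or fat week 7 replicate 4 (6.92%), 4 without lean week 1 replicate 3 (11.2%) or fat week 1 replicate 2 (9.32%), 14 on omitting lean week 7 replicate 4 (20.8%), and 13 on omitting fat week 7 replicate 1 (21.8%). The share of all probes called thus moved with the members' count. Of 42 alternatives PSMA6 kept its call in 41, PSMA7 in 40, PSMD11 in 37, UBE2D3 in 32, PSMA2 in 29, PSMC1 in 27, PSMB3 in 20 and PSMB4 in 19. The 42 include the 30 fits without 1 array, but not the fit of only the groups compared, where all of these calls were lost. Sign turned for PSMA2 with header day as a block (0.01244) and for PSMB4 with loess per grid block and without the sloped arrays (-0.0196). The F test over ages, with 2 calls, gave 0 with all 32 arrays, header day, array weights, scaling or without the sloped arrays under either normalization, 1 with loess per grid block, bad spots kept or the authors' table, and 0 to 3 without 1 array (0 without lean week 7 replicate 3 or fat week 7 replicate 4). Calls within a line, also 2, became 1 with all 32 arrays, array weights, bad spots or the authors' table, 0 with header day, scaling, only the groups compared or without the sloped arrays under either normalization, 5 with loess per grid block, and 0 to 7 without 1 array (0 without lean week 1 replicate 3, 7 without fat week 7 replicate 3). For the F test and the calls within a line the share of all probes was not counted in these settings. Their rise or fall is thus not a result about the members. The line comparisons stayed at 0 except with replicate as a block and without 1 array (0 to 1 over the ages, 0 to 4 at single weeks, both highest without fat week 7 replicate 3), and interaction and single steps stayed at 0 throughout. Class medians moved by more than the SD of single arrays within groups in 15 of 588 values, 7 of them for the ATPases with age. That is a wide measure, and signs turned more widely. With age the median turned sign for the activating enzymes in 8 of 42 alternatives and for the non-ATPase members in 1. Between the lines it did so for the ATPases in 5 and the conjugating enzymes in 2. It did so in 1 each for the activating enzymes, the assembly chaperones and the activators and inhibitor.

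Replicate numbers were checked as a pairing: same-numbered fat and lean arrays of a week correlated at -0.08 to 0.31 in their deviations, over 0.1 in 9 of 15 pairs, and as a hint of shared sets 20 of 30 arrays correlated best with their own number, with a median of 0.136 for the same number and -0.0342 for others. The labels do not say what arrays of one number share. By the headers, some days hold arrays of a single number, of both lines, while other days mix numbers. Same-numbered arrays thus often share a header day. As 6 of the 15 pairs were not over 0.1, the fit without a block was kept. These values do not settle whether the arrays are paired, and the line calls depend on that choice. With replicate as a block 10 members were called with age (16.6% of probes), 7 of them among the 8, 6 within a line (share of probes not counted), 1 between the lines over the ages (1.91% of probes), PSMD7 at -0.21 (adjusted p = 0.035), and 2 at week 7 (3.58% of probes), PSMB5 and PSMD7. Probes within about 2 times background, such as PSMG1 and UBA6, limit what can be measured.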
